A study of Mus musculus with 24 samples.

Results

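Tubulin isotypes were followed across 7 mouse cell lines. The set held 10 genes, 6 for β-tubulins (Tubb2b, Tubb2a, Tubb3, Tubb4a, Tubb5 and Tubb6) and 4 for α-tubulins (Tuba1a, Tuba1b, Tuba1c and Tuba4a), out of 45547 gene names on the array. Tubb2b was chosen by its signals on these arrays. That its difference between the lines DB#2 and D was what chose it is an assumption. Which lines entered that choice is not known, so its values are given as a description, with no test in any comparison. The other 9 belong to the same family. A gene entered when the RefSeq transcript given for its probe carried the gene's symbol, which gave 14 of 56488 probes. Tubb2b, Tubb2a, Tubb3, Tubb4a, Tubb5, Tubb6 and Tuba1a had 1 probe each, Tuba1b and Tuba4a had 2, and Tuba1c had 3. Values are the log2 intensity of the brightest probe of a gene minus the 75th percentile of its array, called the normalized log2 signal. It compares lines for one gene, and says nothing of which isotype is the more abundant.

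α- and β-tubulin join in pairs, and these pairs are the building blocks of microtubules, the hollow filaments that carry cargo, shape cells and separate chromosomes. Mammals have several genes for each partner. The proteins are very alike and differ mainly in their acidic tails, where most of the modifying enzymes and many partner proteins bind. Tubb5, Tuba1b and Tuba1c are widely expressed. Tubb2b, Tubb3 and Tuba1a are best known from developing neurons, and Tubb3 (class III β-tubulin) is used as a neuronal marker that also appears in melanocytic and other tumour cells.

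The study compared tumour cells recovered after long dormancy in vaccinated mice with their parental cells. M is the parental B16F1-GFP melanoma line, D a line recovered from mice with dormant disease, and DB#1, DB#2 and DB#3 are lines of the next generation taken from a brain site. All 5 carry the GFP label and were grown in DMEM with serum before RNA was taken, so the arrays show cells expanded in culture, not cells in the dormant state. M0 and J365 are labelled as myeloid lines at p20, and their medium is not described in the labels. There were 3 arrays of M, 4 of D, 4 of DB#1, 3 of DB#2, 3 of DB#3, 4 of M0 and 3 of J365. Each line is a single line, and nothing in the labels says that its arrays came from separate cultures, so p-values measure only the spread between these arrays, which may be technical.

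The 24 arrays lay on 3 slides, and each slide held every line. Of 81 pairs of arrays from different lines on 1 slide, 75 deviated from their line means together (r above 0.1). All 8 melanocyte markers were read well above background on each of the 17 melanoma arrays (mean normalized log2 signal 6.15 to 7.28), against 2 to 3 of 8 on the myeloid arrays (-4.80 to -4.43). All 8 blood markers were read on each myeloid array (2.64 to 3.26), against 1 to 6 of 8 on the melanoma arrays (-5.22 to -3.36). D replicate 3 stood apart, with 90.3% of its probes well above background against 46.0% to 55.8% on the other arrays. Values of D members that moved without it are given both ways.

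Tubb2b varied more between the melanoma lines than any other member. In M its normalized log2 signal was -0.71, -0.30 and -0.26 (mean -0.42 ± 0.25, SD, n = 3). In D it was 1.93, 1.78, 1.46 and 1.89 (1.77 ± 0.21, SD, n = 4), with the lowest value on D replicate 3. All D arrays lay above all M arrays. In DB#2 it was -2.50, -2.38 and -1.91 (-2.26 ± 0.31, SD, n = 3), which is below every array of the other 4 melanoma lines. The mean of DB#2 was lower than that of D by 4.03 log2 units (4.13 without D replicate 3), and lower than that of M by 1.84. The D mean exceeded that of M by 2.19, and by 2.29 without D replicate 3. Leaving out any single array kept it between 2.04 and 2.29. The myeloid lines were at background, since the probe was well above background on 0 of 7 arrays. In RNA from whole cultures, fewer cells that use the gene and less RNA per cell cannot be told apart.

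**Figure D1:**
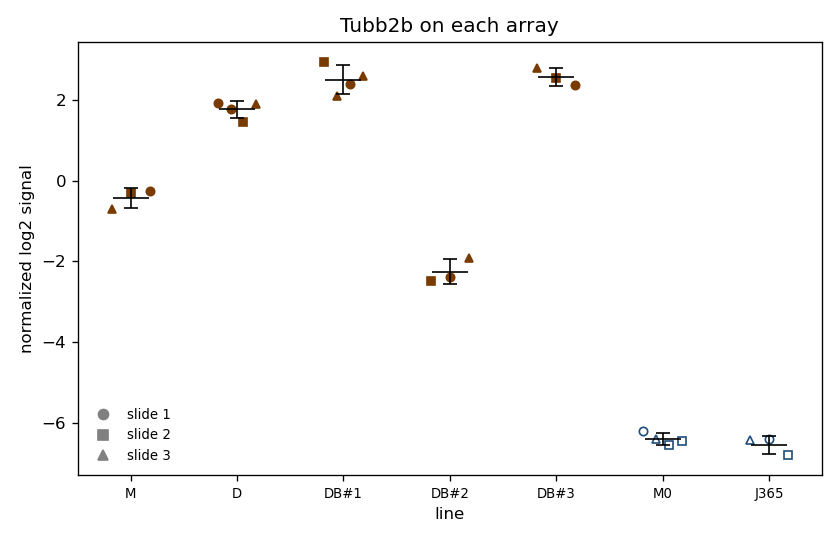
Normalized log2 signal of Tubb2b (y axis) on each array of the 7 lines (x axis); symbols mark the slide, filled points are well above background, and bars give the mean and SD of a line. The 3 DB#2 arrays lie between -2.50 and -1.91, below M, while DB#1 and DB#3 lie between 2.10 and 2.94.

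In DB#1 its signal was 2.94, 2.10, 2.39 and 2.59 (2.51 ± 0.35, SD, n = 4), and in DB#3 it was 2.80, 2.54 and 2.36 (2.56 ± 0.22, SD, n = 3). Every array of both lines lay above every array of M and D. The mean of DB#1 exceeded that of M by 2.93 log2 units, a fold of 7.61, and that of DB#3 by 2.99, a fold of 7.92. Within slides 1, 2 and 3 the difference was 2.65, 3.24 and 3.05 for DB#1 and 2.62, 2.83 and 3.50 for DB#3. DB#1 and DB#3 overlapped, with means 0.06 apart (difference -0.06). The order of the melanoma lines was therefore DB#2, M, D and then DB#1 and DB#3, and only the last neighbours overlapped.

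Other neuronal genes were set beside this. On the 16 melanoma arrays other than D replicate 3, 2 of 8 neuron markers were read well above background, Snap25 and Elavl4, while Rbfox3, Syt1, Nefl, Nefm, Slc17a7 and Gad1 were at background in each. On D replicate 3 the count was 7 of 8. The mean of the 8 neuron markers was -4.81 to -4.30 on those 16 arrays and -2.15 on D replicate 3. Snap25 and Elavl4 were also read on every myeloid array, so they are not particular to the melanoma lines. Means of Snap25 were 3.68 in M0 and 3.36 in J365, against 2.24 in M, and those of Elavl4 were -0.46, -0.69 and -0.23.

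The genes whose pattern was most like that of Tubb2b over the 17 melanoma arrays, among 13230 genes, were Daam2, H2-DMb1, B3galt4, Ada and Snx18, with Pearson's r of 0.964, 0.955, 0.951, 0.947 and 0.944. The arrays fall into 5 lines and share slides, so r mostly repeats the order of the line means and carries no p. Genes were compared if well above background on every array of some melanoma line, so a gene could enter only through lines where it was high. The weakest readable signal on the M arrays averaged -4.29. Means in DB#2 of -4.61 for B3galt4 and -3.79 for H2-DMb1 lie near background, so part of their likeness rests on dim values. Daam2, a formin that acts on actin, had means of -0.62 in M, 0.95 in D, 0.97 in DB#1, -1.65 in DB#2 and 1.04 in DB#3. H2-DMb1, which helps load MHC class II molecules, had -2.77, -0.49, 0.06, -3.79 and 0.10 in the same order. The likeness ended at the melanoma lines for some of them, because H2-DMb1 was at 3.35 in M0 and 3.33 in J365.

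Tubb2a lies next to Tubb2b on chromosome 13 in the RefSeq order of assembly GRCm38.p6, with a single non-coding gene, 4930447K03Rik, between them, and encodes a very similar protein. Its probe did not follow that of Tubb2b. It read 2.12, 2.28 and 2.76 in M, and 2.70, 3.39 and 2.80 in DB#2. The DB#2 mean differed from that of D by 0.01 (-0.18 without D replicate 3), and from that of M by 0.58 with a 95% interval of -0.06 to 1.21 (adjusted p 0.505). In D it read 3.87, 2.86, 2.36 and 2.71, and the D mean was 0.56 above M (-0.03 to 1.15, adjusted p 0.469), or 0.76 without D replicate 3 (0.17 to 1.35, adjusted p 0.188). The largest difference from M was in DB#3, 0.81 with a 95% interval of 0.18 to 1.45, where the lines did not overlap but the adjusted p was 0.255. The probe sequences are not used here, so how far a probe for one isotype also binds a neighbour's transcript was not tested.

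Tubb3 was the only one of the 9 members tested that was called between melanoma lines, and it was highest in DB#2, where Tubb2b was lowest. It read 3.68, 4.34 and 4.10 in DB#2 (4.04 ± 0.33, SD, n = 3), against 2.37, 2.79 and 3.02 in M (2.73 ± 0.33, SD, n = 3). All 3 DB#2 arrays lay above all arrays of the other melanoma lines. Tubb3 rose in DB#2 over M by 1.31 ± 0.26 log2 units (SE), a fold of 2.48 (limma adjusted p 0.00393, and 0.00519 with slide as a block). Within slides 1, 2 and 3 the difference was 1.32, 0.89 and 1.73. Fitted on the arrays of these 2 lines alone, the adjusted p was 0.0507.

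The rise of Tubb3 in DB#2 over the other brain-derived lines was smaller, and its call depended on single arrays. Over DB#1, which read 3.20, 2.78, 2.95 and 3.02, it was 1.05 ± 0.24 (SE; limma adjusted p 0.0121). Over DB#3, which read 2.94, 3.08 and 3.29, it was 0.94 ± 0.26 (SE; limma adjusted p 0.043). The adjusted p of the first was 0.0963 without DB#2 replicate 2 and 0.0575 without DB#2 replicate 3. That of the second was 0.216 and 0.142 without the same arrays, and 0.173, 0.128 and 0.0744 without DB#3 replicates 3, 4 and 5. It was also 0.139 with no filter on dim probes, and 0.0682 in a fit on those 2 lines alone. Against D the DB#2 mean was 1.28 higher, as a description, and 1.12 higher without D replicate 3. D itself read 3.24, 2.80, 2.28 and 2.72, and its mean differed from that of M by 0.03 with a 95% interval of -0.47 to 0.54 (adjusted p 0.989), or by 0.19 without D replicate 3 (-0.32 to 0.70, adjusted p 0.745).

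**Figure D2:**
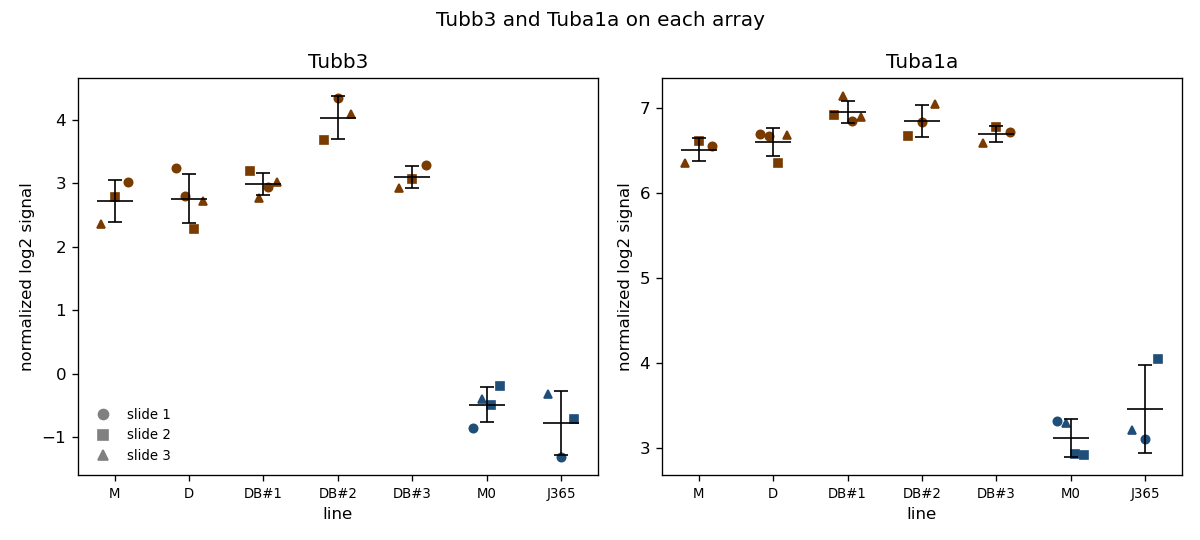
Normalized log2 signal of Tubb3 (left) and Tuba1a (right) on each array of the 7 lines; symbols mark the slide and bars give the mean and SD of a line. The Tubb3 values of DB#2, 3.68 to 4.34, lie above those of every other line, and for both genes the 17 melanoma arrays lie above the 7 myeloid arrays.

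Tubb2a and the remaining 7 members were not called in any comparison between melanoma lines. Tuba1a read 6.36, 6.61 and 6.56 in M and 6.85 to 7.14 in DB#1, which did not overlap, and their difference of 0.44 had a 95% interval of 0.06 to 0.83 (adjusted p 0.285). For Tubb5, a widely expressed β-tubulin, the means were 7.57 in M, 7.90 in D (8.09 without D replicate 3), 7.998 in DB#1, 7.69 in DB#2 and 8.10 in DB#3. DB#3 differed from M by 0.52 in Tubb5, with a 95% interval of -0.01 to 1.05 (adjusted p 0.515). Tubb6 had its highest mean in DB#2, 5.27, and its lowest in D, 4.77 (4.96 without D replicate 3). The means of Tuba1b ran from 9.35 in DB#2 to 9.61 in DB#3, and those of Tuba1c from 7.97 in D to 8.20 in DB#3. Without D replicate 3 the Tuba1c mean of D was 8.10, and M was lowest at 7.99. The Tuba1b range of 0.26 was narrow, since 8972 of 11872 genes read on all melanoma arrays had a wider one. Tuba4a, the α-tubulin whose gene encodes no final tyrosine, had means of 1.57 in D to 1.94 in DB#1.

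Tubb4a, a β-tubulin known from myelinating glia and neurons, differed more by slide than by melanoma line. On slide 1 it read -0.77 in M, -1.29 and -1.28 in D, -1.27 in DB#1, -1.11 in DB#2 and -0.58 in DB#3. On slides 2 and 3 the melanoma arrays lay between -0.23 and 0.34, above all of those on slide 1. Its intervals against M were the widest of the family, for example -1.33 to 0.48 in D.

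**Figure D3:**
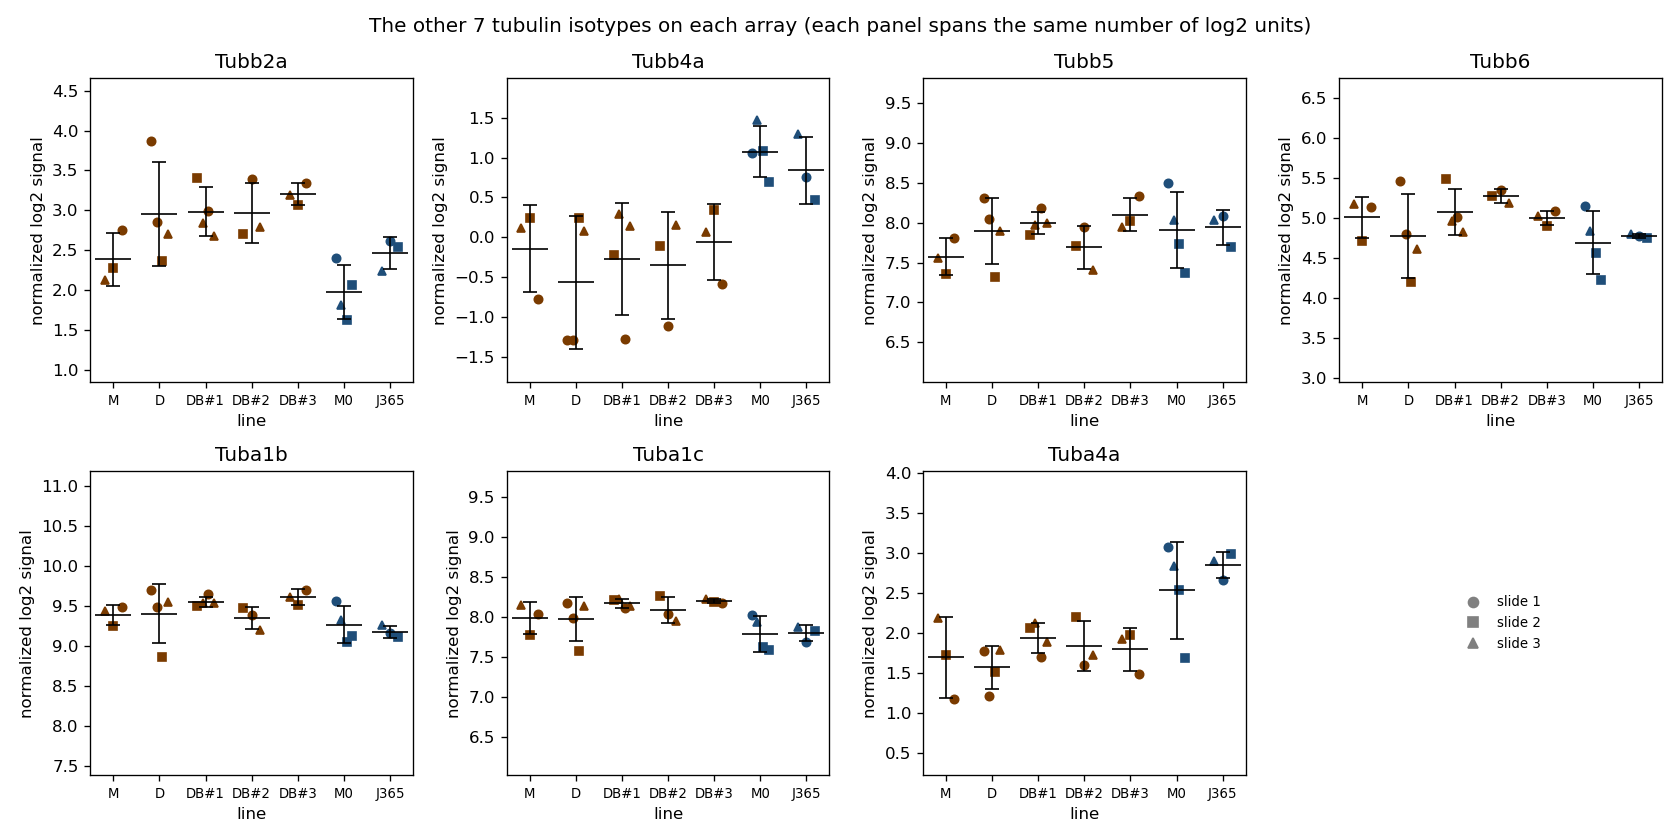
Normalized log2 signal of the 7 members other than Tubb2b, Tubb3 and Tuba1a on each array of the 7 lines, one panel per gene, all panels spanning the same number of log2 units; symbols mark the slide and bars give the mean and SD. The lines overlap in most panels, and in Tubb4a the slide 1 arrays of the melanoma lines, -1.29 to -0.58, lie below their other arrays.

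Of the 9 members tested, few were called. Between D and M, 0 of 9 were called (2.96% of all genes tested were called), with differences of -0.42 to 0.56 and 0 at an unadjusted p under 0.05 (limma). Without D replicate 3 it was 0 of 9 (3.16%), with 2 at an unadjusted p under 0.05. The share of all genes at that unadjusted threshold was not counted, so the unadjusted counts have no background beside them. In DB#1 against M, 0 of 9 were called (background 3.69%), and in DB#3 against M 0 of 9 (2.76%), with 2 and 1 at an unadjusted p under 0.05. In DB#2 against M it was 1 of 9, Tubb3 (3.44%). Tubb3 was also the 1 member of 9 called in DB#2 against DB#1 (5.47%) and against DB#3 (4.44%). Between DB#1 and DB#3, 0 of 9 were called (0.229%), with 0 at an unadjusted p under 0.05. A block for slide left these member counts the same, while the background rose to 5.38% in D, 5.62% in DB#1, 5.31% in DB#2 and 3.93% in DB#3 over M, and to 9.33% and 7.43% in DB#2 against DB#1 and DB#3. The median difference of the members tested was 0.02 in D, 0.25 in DB#1, 0.15 in DB#2 and 0.21 in DB#3 over M, where that of all genes was -0.01, 0.04, 0.02 and 0.03. With 3 or 4 arrays a line, an uncalled difference from M could still be as large as 1.45 log2 units at the edge of its 95% interval. Against D, the DB#2 means of the 8 members besides Tubb2b and Tubb3 differed by -0.21 (Tubb5) to 0.50 (Tubb6). Without D replicate 3 these were -0.40 and 0.31, and Tubb4a was highest at 0.48.

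No member was called in the myeloid pair. Between J365 and M0, 0 of 9 members tested were called (1.47% of all genes tested, or 2.42% with slide as a block), and 0 had an unadjusted p under 0.05. Tubb2b was at background in both and was not tested. Member differences ran from -0.29 to 0.49, the largest being Tubb2a with 2.24, 2.61 and 2.54 in J365 and 2.41, 1.81, 1.63 and 2.06 in M0. When the difference between D and M was set against that between J365 and M0, 0 of 9 members were called (2.07%, or 3.1% with slide as a block), and 0 had an unadjusted p under 0.05. The uncalled differences there ran from -0.44 to 0.33, with 95% intervals reaching as far as 1.48.

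The largest contrasts of the family lay between the melanoma and the myeloid lines. Of 9 members tested between M and M0, 4 were called, against 58.5% of all genes, so the share is no higher than the background. These lines differ in lineage and perhaps in culture, which cannot be told apart here. Tubb3 and Tuba1a were higher in M, and Tubb4a and Tuba4a were lower.

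As a description, Tubb2b was at least 12.7-fold higher in M than in M0. The probe was not well above background on any M0 array, where its measured mean was -6.40, and the bound uses the lowest signal that was well above background. Even DB#2, the lowest melanoma line, was at least 3.55-fold above M0. The difference of the measured means was 5.98 log2 units, and it was 2.45 under normexp background correction, which adds an offset of 50 to every signal. That value lies below the bound. Under normexp DB#2 was lower than M (difference -1.34), so its bound of 3.55-fold over M0 was not reached there either.

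Tuba1a read 3.32, 3.30, 2.93 and 2.92 in M0 and 3.21, 3.11 and 4.05 in J365, where all melanoma arrays were at 6.36 or higher. It was higher in M than in M0 by 3.39 ± 0.19 log2 units (SE), a fold of 10.5 (limma adjusted p 1.67e-12), and by 3.25, 3.69 and 3.06 within slides 1, 2 and 3. Its neighbours on chromosome 15, Tuba1b directly beside it and Tuba1c with 4 genes between that do not code for protein, were not called. They differed by 0.12 (95% interval -0.22 to 0.47) and 0.20 (-0.12 to 0.51). For Tuba1c the other 2 probes gave larger differences, up to 0.95, and with the mean of its probes it was called at 0.66 (limma adjusted p 0.0193). Quantile normalization also called Tuba1b and Tuba1c, at 0.56 and 0.68 (limma adjusted p 0.000169 and 1.19e-05).

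Tubb3 read -0.86, -0.41, -0.49 and -0.20 in M0 and -0.32, -1.31 and -0.71 in J365, well above background on each. It was higher in M than in M0 by 3.22 ± 0.25 (SE), a fold of 9.29 (limma adjusted p 3.88e-10), and by 3.88, 3.13 and 2.78 within slides 1, 2 and 3. Both Tubb3 and Tuba1a were also higher in each other melanoma line than in either myeloid line, with no overlap.

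The sequences before the starts of Tubb3 and Tuba1a are shown because both genes were called higher in M than in M0 and could be read in every line. RefSeq's promoter table for GRCm38.p6 held 8 of the 10 members, and Tubb2b was not among them. Each sequence is the 250 bases before the start, 5′ to 3′ on the gene's strand, for Tubb3 chr8:123411303-123411552 on the plus strand and for Tuba1a chr15:98953502-98953751 on the minus strand. Capitals mark GGGCGG, the GC box read by SP1-type factors, and CCAAT, the CCAAT box, on either strand.
Tubb3: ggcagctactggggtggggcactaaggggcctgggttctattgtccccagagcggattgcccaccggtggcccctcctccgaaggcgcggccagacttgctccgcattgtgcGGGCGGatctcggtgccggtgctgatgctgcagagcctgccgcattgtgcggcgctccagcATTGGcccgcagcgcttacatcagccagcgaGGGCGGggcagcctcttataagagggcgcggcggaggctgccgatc
Tuba1a: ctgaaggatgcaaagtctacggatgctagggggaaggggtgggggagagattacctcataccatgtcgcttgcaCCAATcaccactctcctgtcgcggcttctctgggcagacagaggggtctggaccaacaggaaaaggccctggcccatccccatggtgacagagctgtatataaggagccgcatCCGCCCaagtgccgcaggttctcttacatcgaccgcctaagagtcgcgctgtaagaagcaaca

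GGGCGG occurred in 2 places in the Tubb3 sequence and in 1 in that of Tuba1a. Outside chromosome 18, 32.7% of 32851 promoter sequences of this length held it on either strand. CCAAT occurred in 1 place in each, and 33.8% of all held it. The letters TATAAA, one form of the TATA box, were in neither (12.4% of all), and its other forms were not searched. Neither held CATGTG or CACGTG, the E-box letters read by the melanocyte factor MITF (12.3% and 6.02%). Matches of this kind are a description of the letters only.

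Tubb4a read 1.06, 1.47, 1.08 and 0.69 in M0 and 1.29, 0.76 and 0.46 in J365, all above the melanoma arrays. It was lower in M than in M0 by 1.21 on the log2 scale (difference -1.21 ± 0.44, SE; limma adjusted p 0.0224), but by -1.83, -0.65 and -1.36 within slides 1, 2 and 3. It was not called without M replicate 3, which lies on slide 1 (-0.90, adjusted p 0.131), without M0 replicate 2 (adjusted p 0.0598) or without scaling between arrays (-1.07, adjusted p 0.0996). Tuba4a was lower in M than in M0 (difference -0.84 ± 0.28, SE; limma adjusted p 0.0135), although the lines overlapped, with 2.19, 1.73 and 1.17 in M and 3.08, 2.84, 2.54 and 1.68 in M0. Its second probe gave -0.34. Tuba4a was not called without M replicate 3 (-0.58, adjusted p 0.112), without M0 replicate 1 (-0.66, adjusted p 0.0533), without scaling (-0.70, adjusted p 0.0898) or in a fit on these 2 lines alone (adjusted p 0.0877). Tubb5 differed by -0.33 (95% interval -0.83 to 0.17, adjusted p 0.251) and was called only with slide as a block, at -0.39 (adjusted p 0.0299).

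**Figure D4:**
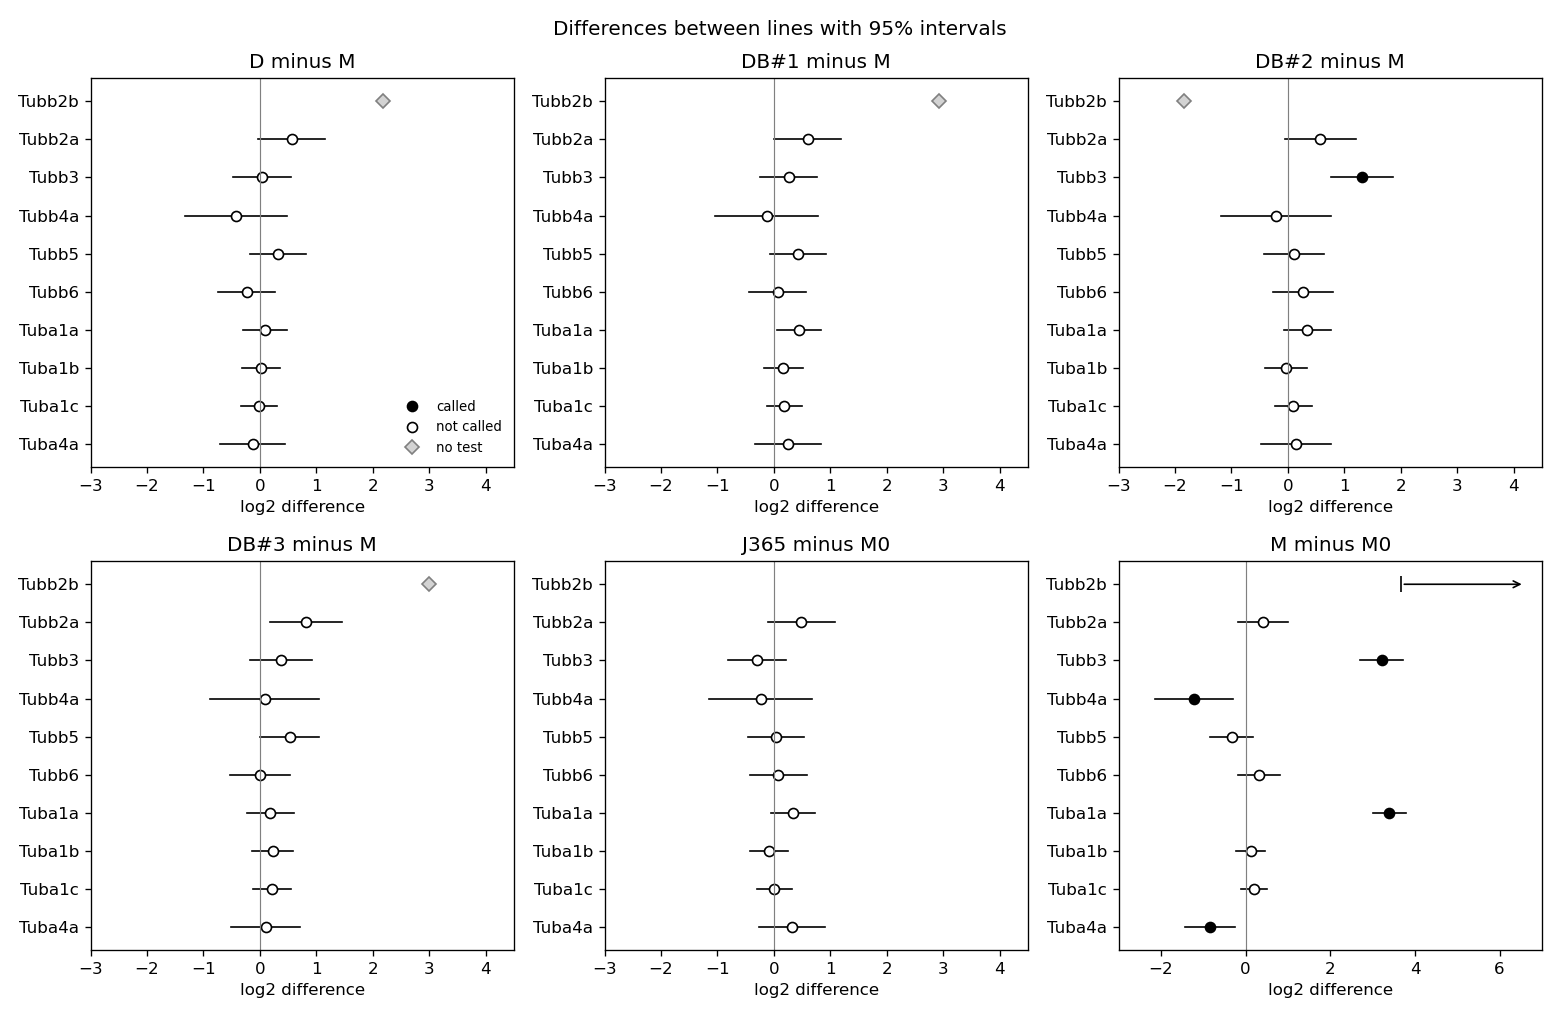
Log2 difference of each member (x axis) in 6 comparisons, with the 95% interval from the limma fit; filled points passed an adjusted p of 0.05, open points did not, grey diamonds (Tubb2b) are described without a test, and the arrow for Tubb2b in M minus M0 starts at the lower bound. Tubb2b stands apart in D, DB#1, DB#2 and DB#3 over M (lower in DB#2), Tubb3 in DB#2, and both with Tuba1a in M minus M0.

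Other tubulins and genes that act on tubulin were described in 6 lists with 106 genes on the array. The lists covered tubulins outside the set of members, folding, modification, binding, severing and nucleation. Across the lists 3 of 94 genes tested were called between D and M (3.19%, against 2.96% of all genes), 2 of 94 in DB#1 (against 3.69%), 2 of 95 in DB#2 (3.44%) and 2 of 95 in DB#3 (2.76%) over M. Between the brain-derived lines it was 0 of 95 for DB#1 against DB#3 (1 at an unadjusted p under 0.05, limma; 0.229%), 1 of 95 for DB#2 against DB#1 (5.47%) and 2 of 96 for DB#2 against DB#3 (4.44%). In J365 against M0 it was 2 of 89 (1.47%), and in the difference between the pairs 2 of 96 (2.07%). Counts this small show nothing particular to the lists. The 22 folding genes, among them the TCP1 ring and prefoldin subunits and the tubulin cofactors, had 0 called over these 9 comparisons (6 of 198 tests at an unadjusted p under 0.05, limma), and their medians over M were 0.10 in D, 0.13 in DB#1, 0.05 in DB#2 and 0.11 in DB#3. The comparisons share lines and arrays, and the share of all genes at that unadjusted threshold was not counted.

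Among the microtubule-associated proteins, Map7, which recruits kinesin-1 to microtubules, rose in DB#2 over M by 1.65 ± 0.22 log2 units (SE; limma adjusted p 5.92e-05) and in DB#1 over M by 1.25 ± 0.21 (SE; limma adjusted p 0.000625). Leaving out any single array kept both calls, while quantile normalization gave adjusted p 0.0546 and 0.133, and the mean of its probes ended the DB#1 call (0.61, adjusted p 0.223). Map7 was also higher in DB#2 than in DB#3, by 0.98 (adjusted p 0.0113), but not without DB#2 replicate 2 or DB#3 replicate 4 (adjusted p 0.0769 and 0.052). Map2, a dendritic microtubule-binding protein, fell in D against M (difference -0.89 ± 0.21, SE; limma adjusted p 0.0218, and 0.0225 without D replicate 3), with -1.07 to -0.55 in D and -0.08 to 0.27 in M. It was not called without D replicate 1, M replicate 2 or M replicate 3 (adjusted p 0.0517, 0.11 and 0.13). The Map2 call was also lost with the mean of its probes (-0.60, adjusted p 0.506) and with no filter on dim probes (adjusted p 0.0792). In a fit on D and M alone its adjusted p was 0.168. Mapre2, a plus-end-binding protein, was 0.66 higher in DB#3 than in M (adjusted p 0.0237), a call lost without any one of the 3 DB#3 arrays or of M replicates 2 and 3 (adjusted p 0.0538 to 0.151). Clasp2 was lower in DB#2 than in DB#3 (-0.51, adjusted p 0.045), a call lost without any one of the 6 arrays (adjusted p 0.0622 to 0.251).

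A pair of genes on this list entered the tests only through the lines where they were high, so they are described without p, and both were named after their values were seen. Map1a was well above background on all arrays of D, DB#1, DB#2 and DB#3 and on no M array, and was at least 1.95-, 2.28-, 3.18- and 3.26-fold higher there. Under normexp the differences in D and DB#1 were smaller than these bounds, at 0.56 and 0.72 log2 units. Mapre3 had a mean of -0.78 in M0 against a measured mean of -4.37 in J365, where 1 of 3 arrays was well above background. Map1a and Mapre3 are among the calls counted above, and were the 2 genes called in the difference between the pairs. The list's median over M was -0.04 in D, 0.08 in DB#1, 0.13 in DB#2 and 0.19 in DB#3.

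Other lists held single calls. Nedd1, which brings the γ-tubulin ring to the centrosome, fell in D against M (difference -0.66 ± 0.13, SE; limma adjusted p 0.0054, and 0.0144 without D replicate 3), with 1.29 to 1.60 in D and 2.03 to 2.30 in M. Without M replicate 1 the adjusted p was 0.0521, and in a fit on D and M alone it was 0.283. Nedd1 was also 0.47 higher in DB#2 than in DB#1 (adjusted p 0.0419), a call lost without any one of the 7 arrays (adjusted p 0.0625 to 0.172). Tpgs2, a subunit of the tubulin polyglutamylase complex, was 0.68 higher in J365 than in M0 (adjusted p 0.0295), a call lost without any one of the J365 arrays or of M0 replicates 2, 3 and 4 (adjusted p 0.051 to 0.205). Of the other tubulins and of the destabilising and severing proteins, 0 were called in these comparisons (3 of 64 and 11 of 98 tests at an unadjusted p under 0.05, limma). These tests are pooled over comparisons that share arrays. Without the share of all genes at that unadjusted threshold, the counts cannot be placed above or below the background.

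Between M and M0, 49 of 96 list genes were called (51.0%), 34 higher and 15 lower in M. Of all 22426 genes tested 58.5% were called, 6213 higher and 6900 lower. The counts of each list include genes not read on every array of the dimmer line, which entered the tests only through the brighter line. Map6, Dclk1, Tacc2, Map2, Ttl, Agbl3 and Fign entered through M, and Map1a and Tuba8 through M0. These genes were named after their values were seen. Microtubule-associated proteins had 14 higher and 2 lower of 23, with a median of 0.74 where all genes had -0.13. Mapt (tau) was higher in M by 4.59 and Map1b by 4.20, while Map7 was lower (-3.48). Folding genes had 7 higher and 3 lower of 22, led by the cofactor Tbcb (1.56). Modifying enzymes had 6 higher and 2 lower of 17. Among those read on every array of both lines, the α-tubulin acetyltransferase Atat1 led (2.69). Ttl and Agbl3 had larger measured differences (6.79 and 6.15). The other tubulins had 3 higher and 2 lower of 8, with γ-tubulins Tubg2 and Tubg1 higher by 4.30 and 1.47. Nucleation genes had 2 higher and 4 lower of 15, and destabilising and severing proteins 2 higher and 2 lower of 11. The α-tubulin Tuba8, named after its values were seen, read 6.48 to 6.96 in M0 and 6.87 to 7.15 in J365, and was well above background on 1 of 3 M arrays.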

How the data were processed

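Total RNA of 24 cell samples was labelled with cyanine 3 and hybridised to single-colour Agilent mouse arrays. The authors deposited 1 scanner table per array (Feature Extraction 10.7.3.1), with an intensity already corrected for background and not scaled between arrays. Control and outlier spots were left out, spots of a probe were averaged, and 56488 probes remained. Log2 intensity minus the array's 75th percentile was fitted with limma 3.58.1 (R 4.3.3) over all arrays, with a term per line and 17 residual degrees of freedom. A gene was tested where marked well above background on each array of 1 or more of the lines compared, and called at a Benjamini-Hochberg adjusted p under 0.05. The code was tested on simulated data. Members and lists were chosen with earlier results of these data known. Tests of Tubb2b planned for comparisons without D and DB#2 were dropped after the data were seen, since how it was chosen is not fully given. All members are named. From the lists, up to 3 called genes per comparison with the largest difference, read on every array of both lines, were eligible. For a probe unreadable in a line, each array there took its own signal or, if higher, that array's weakest readable signal, to give a bound. Alternatives were other scalings, no filter, probe means, slide or replicate number as a block, only the lines compared, each array left out, and normexp (offset 50), which ran on median signals because the files used hold no mean signals, a change made after seeing the data. The M0 and J365 arrays without a number are called replicate 4 in name only.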

Additional observations from a re-analysis of the deposited data

Results flagged for a closer look

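Among the 10 members, 30 sets of 4 arrays of one line were examined for an array far from the other 3, and 1 was found, where chance gives about 1 in 20. Tuba1a read 6.36 on D replicate 3 and 6.68 to 6.70 on the other D arrays, a gap that was 0.925 of the line's whole range and past Dixon's 95% limit. D replicate 3 is also the array with 90.3% of its probes well above background.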

How the results depend on the processing

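Calls of Tubb3 and Tuba1a between M and M0 held under every alternative run. The number of members called fell from 1 to 0 in DB#2 against M in a fit on those lines alone, and in DB#2 against DB#3 in a fit on those lines alone, with no filter on dim probes and with the replicate block. Leaving out single arrays gave 0 to 1 in DB#2 against DB#1, 0 in DB#2 against DB#3 without any of DB#2 replicates 2 and 3 or DB#3 replicates 3, 4 and 5 (range 0 to 1), and 2 to 4 in M against M0. In M against M0 it was 2 without scaling (4 as reported), which moved the median of all genes from -0.13 to 0.01. Without scaling that median was 0.17 in D and 0.25 in DB#2 over M. Normexp gave Tubb2b -3.33 in DB#2 against D, -1.34 against M, -4.05 against DB#1 and -4.11 against DB#3, 2.45 in M against M0, where the measured difference was 5.98, and 2.00 in the difference between the pairs. Tubb5 in M against M0 was 0.17 under quantile normalization. The cause was not tested. Of 80 other uncalled member differences, 40 changed sign under at least 1 alternative and none was called (lowest adjusted p 0.0684).

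Replicate numbers were not used to pair the arrays in the main fit. Of 49 same-numbered pairs from different lines, 23 had deviations correlated above 0.1 (range -0.80 to 0.91). On the same slide the mean r was 0.66 for same-numbered pairs and 0.47 for other pairs. On different slides it was -0.09 and -0.25. Whether the numbers mark a pairing was not tested. With the replicate block, Tubb3 in DB#2 against DB#3 was 0.99 with an adjusted p of 0.198, and no other member's call was lost. Of the list genes outside M against M0, the block ended the calls of Map7 (0.83, adjusted p 0.137) and Clasp2 (-0.46, adjusted p 0.266) in DB#2 against DB#3. It also ended those of Tpgs2 in J365 against M0 (0.60, adjusted p 0.373) and of Map1a in the difference between the pairs. Without scaling Map2 and Nedd1 in D against M had adjusted p 0.133 and 0.26. Under normexp Map1a was 0.56 log2 units higher in D and 0.72 higher in DB#1 than in M. Both values lie below their bounds of 1.95- and 2.28-fold. Depth is not counted on arrays, and the myeloid background limits Tubb2b there.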
